A study of Drosophila melanogaster with 42 samples.

Results

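The Trr peak set holds every region that the authors called as bound by Trithorax-related (Trr) in adult Drosophila intestinal stem cells (ISCs). It comprised 4840 of the 22355 peaks in the deposited lists for 7 Dam fusions, and no peak was left out. Each peak was called from Dam-Trr replicates 1 to 3 against Dam-only replicates 9 to 11. A peak is a run of at least 2 consecutive GATC sites with more Dam methylation in the fusion than in Dam-only. The list gives an arm, a start and an end, with no height, read count or replicate value. The spread between replicates is therefore unknown for each peak, the depth is unknown, and the shares below are given as descriptions without a test.

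Trr is a histone methyltransferase of the COMPASS-like family, the fly counterpart of mammalian MLL3 and MLL4, and its complex is best known for placing monomethyl marks on lysine 4 of histone H3 at enhancers. The same complex holds the demethylase Utx and the subunits Lpt, Ptip and Pa1, and it shares ash2, Rbbp5, wds and Dpy-30L1 with the Set1 and Trx complexes. In flies Trr is also known as a coactivator of the ecdysone receptor. In the midgut, ISCs divide to renew themselves and to produce enteroblasts, which become enterocytes, and enteroendocrine cells.

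The study asked where chromatin regulators bind in ISCs, using DNA adenine methyltransferase (Dam) fused to each protein so that bound DNA is marked by methylation of GATC sites. Dam-Trr flies carried esg-gal4ts NREGal80>UAS-DamTrr, in which the escargot driver acts in progenitor cells and the Notch-responsive Gal80 silences it in enteroblasts. The matching controls carried Dam alone under the same driver. The RNA Pol II flies carried UAS-DamPolII under this driver and were compared with Dam-only replicates 1 to 3, so the Trr and RNA Pol II lists share no control sample. Flies of all these groups were kept at 18 °C, shifted to 29 °C at 3 days of age for 1 day to induce Dam, and sampled as pools of 60 guts. DNA came from the whole intestine, so assignment to ISCs rests on the driver. Dam was joined to the amino terminus of Trr, encoded by genomic trr sequence from start to stop codon inserted at a single landing site.

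Trr peaks ranged from 8 to 18805 bp, with a median of 655.5 bp and quartiles at 287 and 1430 bp. RNA Pol II peaks were wider, with a median of 1234.5 bp over 6820 peaks on the 6 arms. The few wide Trr peaks held much of the bound DNA. The 732 peaks of 2 kb or more were 15.1% of peaks and 48.9% of all bound base pairs, and the 112 peaks of 5 kb or more held 14.9%. At the other end, 520 peaks were under 200 bp, of which 99 were under 100 bp.

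The widths of Trr peaks did not fall in a single smooth hump. Between 150 and 324 bp each 25 bp step held 129 to 210 peaks, and from 325 to below 500 bp each step held 50 to 96. These limits were set after the distribution was seen. The 1281 peaks of the shorter class were 26.5% of the Trr peaks but 5.59% of their base pairs. Brahma (Brm) peaks showed the same step more strongly, with 67.2% of peaks in the shorter class and 9.82% in the next, whereas RNA Pol II had 5.50% and 6.99%. Reads had been extended to a fixed length or to the next GATC before the call, and the part of this step in the widths was not tested.

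**Figure D1:**
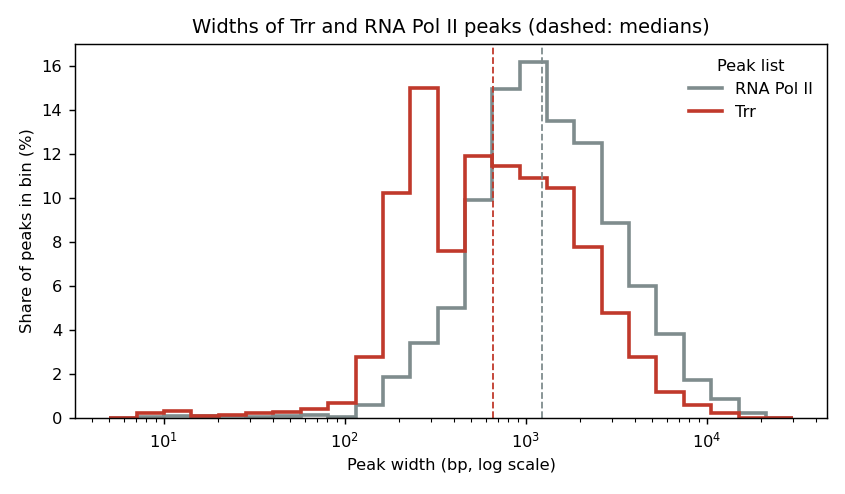
Share of peaks (%) in each bin of peak width (bp, log scale) for the 4840 Trr peaks and the 6820 RNA Pol II peaks on the arms, with dashed lines at the medians of 655.5 and 1234.5 bp. Trr has a narrow group of peaks below 325 bp that is small in the RNA Pol II list.

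Trr bound all 6 arms, most densely on X and least on chromosome 4. There were 43.0 peaks per Mb on X, against 33.3 to 38.4 on 2L, 2R, 3L and 3R and 15.6 on chromosome 4. RNA Pol II differed less between arms, with 55.9 peaks per Mb on X, 48.5 to 52.8 on the large autosomal arms and 45.4 on chromosome 4. Trr was present in 50.1% of RNA Pol II-bound genes on X and 42.6 to 48.7% on the large autosomal arms, against 21.1% on chromosome 4. The 20 Trr peaks of chromosome 4 had a median width of 375 bp and none reached 2 kb. The centromere-proximal 5 Mb of the large arms, with 18.7% of the sequence and 8.23% of the genes, held 284 Trr peaks, 5.87% of the total, and 7.02% of the RNA Pol II peaks. The median gap between neighbouring Trr peaks was 6175.5 bp, with 961 gaps (19.9%) of 1 kb or less and 267 of 100 kb or more.

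Most bound DNA lay in genes. Of the base pairs in Trr peaks, 84.3% fell in annotated gene bodies, which cover 69.5% of the arms, and the share was 85.2% for RNA Pol II. A total of 4422 peaks touched a gene, 3291 of them exactly 1 gene and 881 at least 2 protein-coding genes. The 418 peaks outside genes lay a median of 856 bp from the nearest gene. Trr peaks held a gene end less often than RNA Pol II peaks did, in 1471 cases (30.4%) against 53.0%, and 2951 (61.0%) lay inside a gene body with no end. This contrast was present within width classes above 500 bp. Among peaks of 2 kb or more, 46.3% of Trr and 65.7% of RNA Pol II peaks held a gene end, whereas below 500 bp the values were 17.2 and 18.9%. Along 1553 protein-coding genes of at least 5 kb with Trr peaks, Trr covered 18.8% of the outermost of 10 equal parts at each end and 15.3 to 16.2% of the inner parts. RNA Pol II covered 34.3% and 27.9 to 29.1% of the same parts.

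Trr peaks touched 3625 of 17684 annotated genes (20.5%), and RNA Pol II peaks touched 7344 (41.5%). Among protein-coding genes 3229 of 13922 (23.2%) had Trr. Longer genes were bound more often, from 6.05% in the shortest of 10 equal length classes (deciles) to 48.5% in the longest. A single peak was found in 2591 of the bound genes, while 1034 had at least 2, 143 at least 5 and 16 at least 10. The median gene length was 1445 bp with no Trr peak, 2792 bp with 1, 10695 bp with 2 to 4 and 40723 bp with 5 or more. Where Trr was present, it covered a median of 573 bp, or 15.7% of the gene body.

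Eip75B, a nuclear receptor gene induced by ecdysone, had the most Trr coverage and the most peaks. It carried 21 Trr peaks with 23613 bp, 20.8% of its body (3L:17950953-18064696, release 6), and 15 RNA Pol II peaks with 25028 bp. Only 53.5% of its Trr base pairs lay in RNA Pol II peaks, below the 82.0% of all Trr base pairs. The long noncoding gene lncRNA:CR44357 followed with 16 peaks and 23449 bp, spread over 239347 bp, so that 9.80% of it was covered. This gene contains the protein-coding gene CG1677 (14 peaks, 18639 bp), and the peaks of CG1677 count for both.

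The next genes were bound more densely. In tara, a SERTAD-family regulator of transcription, 5 Trr peaks covered 23441 bp or 67.6% of the gene. SNF4Agamma, the gamma subunit of the energy sensor AMPK, had 12 peaks with 22050 bp, but its RNA Pol II coverage was larger at 46870 bp and contained 96.9% of the Trr base pairs. Raf, the kinase that activates MAP kinase signalling below Ras, had 6 peaks with 20900 bp, 43.2% of its body. The Cullin adaptor gene rdx had 10 peaks with 19176 bp. RhoGAP18B, which encodes a GTPase-activating protein, had 10 peaks that covered 59.6% of it. bun, a TSC22-family factor, had the fourth most peaks (13) but 13487 bp of Trr beside 48006 bp of RNA Pol II. In 9 of the 10 genes with most Trr coverage, RNA Pol II covered more base pairs than Trr did, the exception being tara with 23261 bp.

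**Figure D2:**
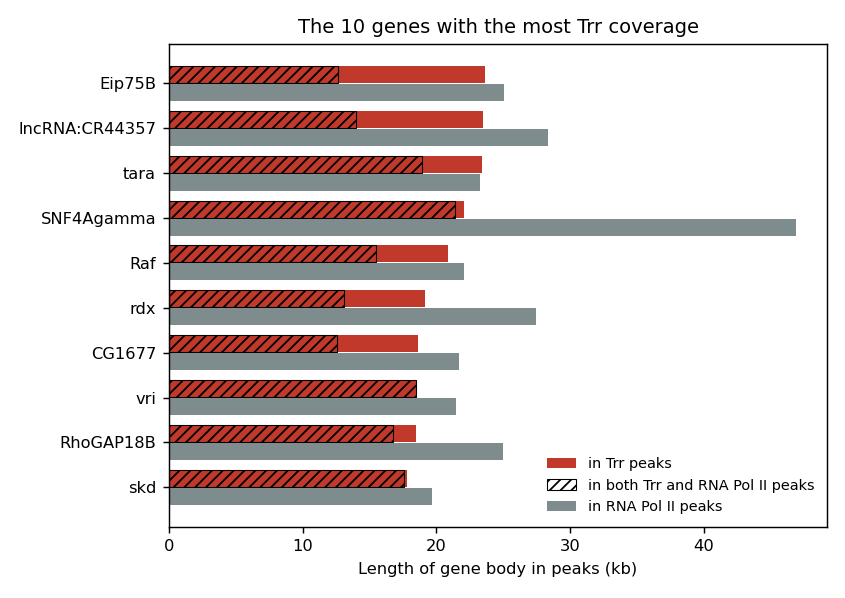
Length of gene body (kb) in Trr peaks, in RNA Pol II peaks and in both (hatched) for the 10 genes with the most Trr coverage. Trr coverage runs from 17840 bp in skd to 23613 bp in Eip75B, and the shared part from 53.5% of it in Eip75B to 100% in vri.

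The 5 widest peaks lay at 7 protein-coding genes. The widest, of 18805 bp on 2L, covered 83.0% of vri, which encodes a bZIP repressor of the circadian clock, and lay wholly in RNA Pol II peaks. The second, of 14772 bp, ran from atos into CG9003, with 83.2% in RNA Pol II peaks. The third, of 14378 bp, lay in skd, which encodes the Med13 subunit of Mediator, with 98.2% in RNA Pol II. The fourth, of 14102 bp in Cipc, named for a CLOCK-interacting protein, stood apart with 21.7% in RNA Pol II peaks. The fifth, of 13890 bp, joined CG32486 to PAN3, a subunit of an mRNA deadenylase, and lay wholly in RNA Pol II peaks.

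Complete coverage was a feature of short genes. Trr covered 169 genes from end to end, of which 40 were protein-coding, and their median length was 500 bp. The longest were by (4774 bp), which encodes the focal adhesion protein tensin, the tetraspanin gene Tsp42El (2770 bp), Rint1 (2637 bp), lncRNA:acal (2336 bp) and the lipid phosphatase gene laza (2316 bp). RNA Pol II also covered 96.0% of by and all of Tsp42El, but 0 bp of Rint1.

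**Figure D3:**
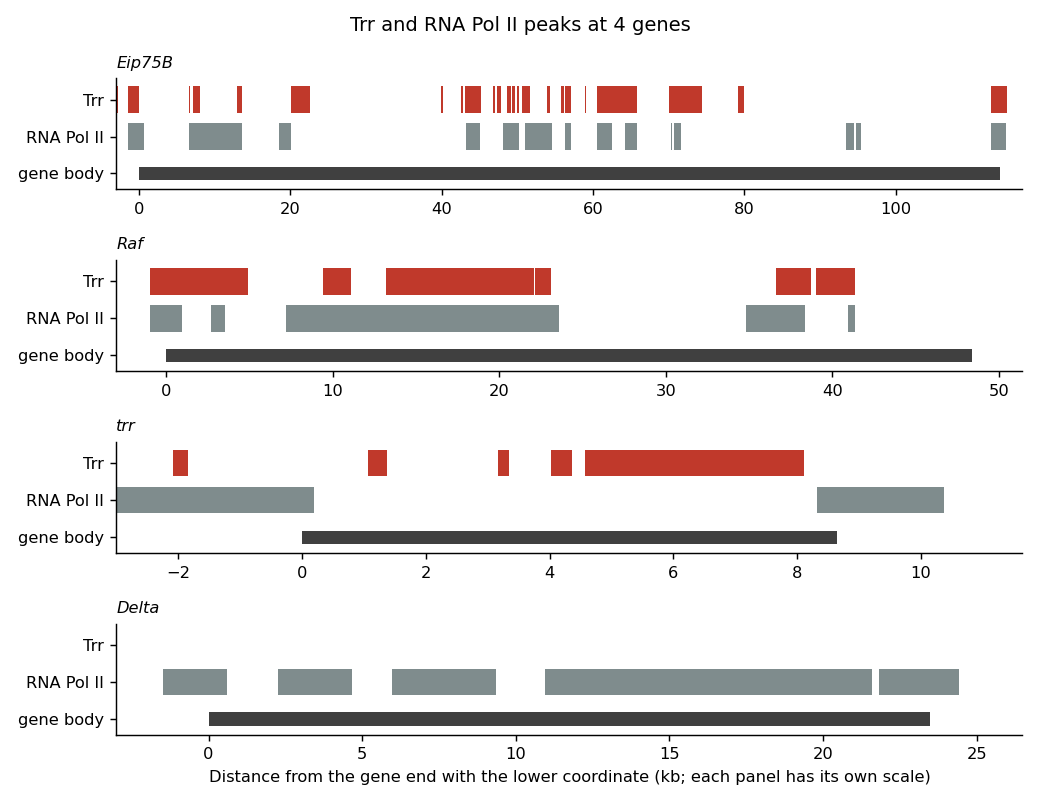
Trr and RNA Pol II peaks along Eip75B, Raf, trr and Delta, as distance (kb) from the gene end with the lower coordinate, with the gene body in black and a separate scale in each panel. Eip75B has 21 scattered Trr peaks, Raf 6 that cover 43.2% of it, trr 4 peaks including 1 of 3539 bp where there is no RNA Pol II, and Delta no Trr peak under 5 RNA Pol II peaks.

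Among the noncoding types described here, antisense RNA genes alone were bound as often as protein-coding genes. Trr touched 209 of 1959 lncRNA genes (10.7%), 16.0% of those that overlap a protein-coding gene and 8.42% of the others. Antisense RNA genes had Trr in 122 of 503 (24.3%), and 502 of these 503 overlap a protein-coding gene. Without strand, a peak in such a pair cannot be given to either gene. For the small RNAs, whose genes are far shorter than most peaks, Trr touched 18 of 290 tRNA genes (6.21%), 17 of 260 miRNA genes (6.54%) and 12 of 269 snoRNA genes (4.46%). RNA Pol II touched 26.9, 16.2 and 46.1% of these types. Only 10 of 245 pseudogenes (4.08%) and 0 of 98 rRNA genes had Trr.

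After lncRNA:CR44357, the most covered lncRNA genes were lncRNA:CR44999 (14572 bp in 12 peaks) and lncRNA:CR32773 (11612 bp in 10 peaks), all 3 on X and at least 149629 bp long. Among antisense genes asRNA:CR46485 led with 3337 bp, then asRNA:CR43730 (2041 bp) and asRNA:CR44987 (1932 bp), each wholly inside RNA Pol II peaks where Trr was present. The leading tRNA genes, tRNA:Leu-AAG-1-1, tRNA:Arg-TCG-2-4 and tRNA:Arg-TCT-1-1, were covered from end to end by both proteins. So were the leading snoRNA genes, snoRNA:Psi28S-2566, snoRNA:lola-a and snoRNA:gcl-a. The miRNA gene mir-956 (148 bp) was wholly in a Trr peak with no RNA Pol II, mir-3645 was wholly covered by both, and mir-4943 had 117 bp of Trr beside 8 bp of RNA Pol II. Among pseudogenes Cyp6a15Psi had 976 bp, CR45391 581 bp and CR45716 241 bp, and among other noncoding RNAs sisRNA:CR46357, sbRNA:1 and sncRNA:838 were wholly covered.

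Trr binding lay mostly within RNA Pol II binding. A total of 4083 Trr peaks (84.4%) touched an RNA Pol II peak, and 2993 (61.8%) lay wholly in RNA Pol II peaks. Of the Trr base pairs 82.0% were in RNA Pol II peaks, which cover 9.93% of the arms. In the other direction 3428 RNA Pol II peaks (50.3%) touched Trr and 33.7% of RNA Pol II base pairs were in Trr peaks. Some peaks had edges at the same positions, with 1037 shared starts (21.4% of Trr peaks), 1083 shared ends (22.4%) and 283 peaks identical in both lists. Both lists were called over GATC sites, which limits where an edge can fall, and the sharing due to this was not tested.

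Overlap with RNA Pol II went with peak width. The share of Trr peaks that touched RNA Pol II was 62.5% below 200 bp, 71.6% from 200 to below 500 bp, 90.3% from 500 to below 1000 bp and 97.5 to 99.1% in the wider classes. RNA Pol II peaks showed the same trend, with 30.5% touched by Trr below 500 bp and 89.7% at 10 kb or more. A wider peak has more base pairs with which to touch another, so these shares are not corrected for width. By arm the share of Trr peaks touching RNA Pol II ran only from 80.0% (chromosome 4, 16 peaks) to 86.9% (3R).

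At the level of genes, 3364 had both proteins, which is 92.8% of the genes with Trr and 45.8% of the genes with RNA Pol II. RNA Pol II was present in 28.3% of the genes without Trr, and Trr in 261 of the 10340 genes without RNA Pol II (2.52%). Of the genes with both, 3251 had base pairs shared by the peaks, and 373 had more Trr than RNA Pol II base pairs. Genes with both had a median length of 4211 bp, against 1878 bp for genes with RNA Pol II alone and 2316 bp for genes with Trr alone. Among genes with RNA Pol II, the share with Trr ran from 23.9% in the shortest decile of genes to 78.1% in the longest, while among genes without RNA Pol II it stayed between 1.01 and 4.90%.

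**Figure D4:**
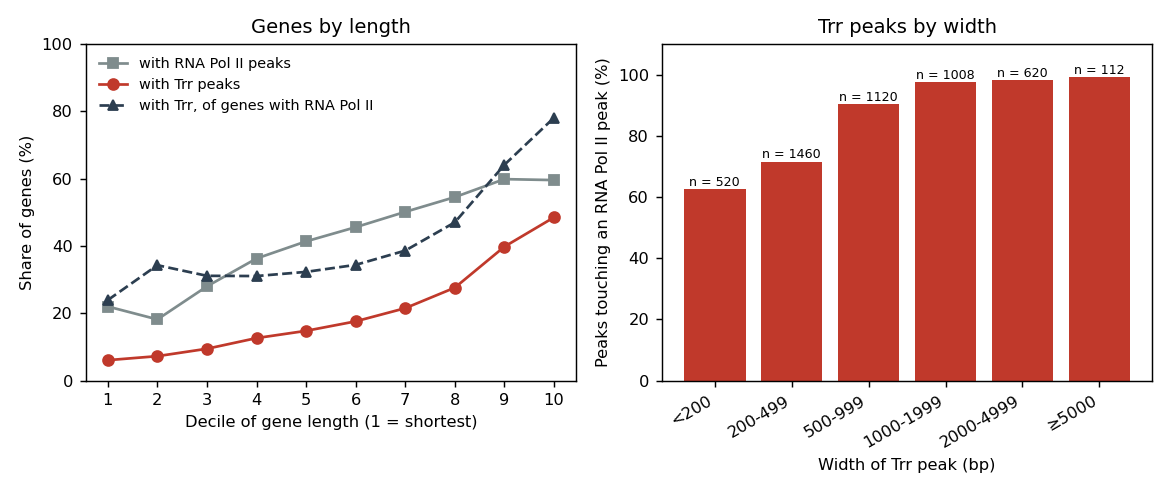
Left, share of genes (%) with Trr peaks, with RNA Pol II peaks, and with Trr among genes with RNA Pol II, in 10 classes of gene length. Right, share of Trr peaks (%) that touch RNA Pol II in 6 width classes (bp). Trr rises from 6.05 to 48.5% of genes with length, and contact with RNA Pol II from 62.5 to 99.1% with peak width.

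The 757 Trr peaks that touched no RNA Pol II peak were narrow, with a median of 268 bp against 800 bp for the others. They lay a median of 1666 bp from the nearest RNA Pol II peak, 305 of them within 1 kb and 123 beyond 10 kb, and 81.4% were in genes against 93.2% of the others. The widest had 5382 bp, lay on X outside any gene and was 3670 bp from RNA Pol II. Of the genes with Trr and no RNA Pol II, CG15186 had the most coverage with 4349 bp in a single peak that was 23435 bp from RNA Pol II. Rint1 had 2637 bp, the nuclear receptor gene Hr39 1606 bp, CG11426 1382 bp, and slo, a calcium-activated potassium channel, 1204 bp. The peak over Rint1 was only 201 bp from the nearest RNA Pol II peak.

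The reverse pattern was led by Delta, which encodes the Notch ligand that marks ISCs. RNA Pol II covered 18695 bp or 79.6% of Delta in 5 peaks, and Trr covered 0 bp. It was followed by kek5, a leucine-rich-repeat membrane protein (18376 bp of RNA Pol II), sba (14246 bp), CG11360 on chromosome 4 (9594 bp) and wdb, a regulatory subunit of protein phosphatase 2A (9017 bp).

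The other fusions were compared with Dam-only samples other than those of Trr. Brm, the ATPase of a SWI/SNF remodeler, touched 1005 Trr peaks (20.8%), and 67.9% of the 1569 Brm peaks touched Trr. Brm peaks cover 0.416% of the arms and 6.60% of the Trr base pairs. They were present in 25.3% of the genes with Trr and 0.960% of the other genes. Proteins of repressed chromatin held smaller shares of Trr than of the arms. Polycomb held 1.54% of Trr base pairs beside 3.92% of the arms, and Heterochromatin Protein 1 (HP1) held 0.894% beside 10.3%. Counted by genes the order was the other way, with Polycomb peaks in 7.89% of the genes with Trr and 4.52% of the other genes, and HP1 peaks in 7.14 and 4.00%. Genes with Trr are longer, with medians of 4211 bp with RNA Pol II and 2316 bp without it, against 1445 bp for genes without Trr. A longer gene has more base pairs for any peak to touch, and the gene shares of Brm, Polycomb and HP1 are not corrected for length. Polycomb touched 6.87% of the Trr peaks without RNA Pol II and 2.89% of those with it. Histone H1 touched 2 Trr peaks. A total of 555 Trr peaks (11.5%) touched none of these 5 lists.

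Genes that respond to ecdysone carried Trr in 11 of 12 cases, beside 20.5% of all genes. They are long, with a median of 55678.5 bp, and 10 of the 12 are in the longest decile of genes, of which 48.5% had Trr. The 10 ecdysone genes with RNA Pol II all had Trr, beside 45.8% over all genes with RNA Pol II and 78.1% in that decile. Besides Eip75B the most covered were Eip74EF, an ETS factor (16306 bp in 12 peaks), EcR, the ecdysone receptor (14014 bp in 9), the nuclear receptor gene Hr4 (13092 bp in 8) and br, a zinc-finger factor (9630 bp in 9). ftz-f1 had 5679 bp, Hr3 3018 bp, Eip93F 2772 bp, Eip78C 510 bp and MsrA 141 bp. The partner of EcR in the receptor, usp, had no peak of Trr or RNA Pol II. Hr39 was the only bound member without RNA Pol II. RNA Pol II touched 10 of the 12, and Trr had the larger coverage in Hr4 (13092 against 11151 bp).

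In the EGFR pathway, which drives ISC division, 13 of 21 genes (61.9%) had Trr and 19 had RNA Pol II, beside 20.5 and 41.5% of all genes. Of the 21 genes, 12 were in the longest decile, where 48.5% of genes had Trr. Of the 19 with RNA Pol II, 68.4% had Trr, beside 45.8% over all genes with RNA Pol II and 78.1% in the longest decile. Among ligands and their processing, spi had 2865 bp and its chaperone S (Star) 2886 bp, while Krn, vn and ru had none. The receptor gene Egfr had 8 peaks with 3672 bp inside a gene where RNA Pol II covered 23174 bp. Of the transducers, Raf was followed by the adaptor gene drk (1691 bp) and Ras85D (502 bp), and Sos, Dsor1 and rl had none. The transcription factor genes were among the most covered, with aop (10439 bp in 10 peaks), pnt (9641 bp in 11) and the repressor gene cic (7630 bp in 4). Of the inhibitors, the phosphatase gene Mkp3 had 8064 bp, sty 2092 bp, the ubiquitin ligase gene Cbl 1083 bp and aos 498 bp, and kek1 had none. In aop Trr covered more than RNA Pol II (7302 bp). The single Cbl peak lay wholly in an RNA Pol II peak, which covered 4235 bp of this gene.

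Genes listed as targets of Yorkie, the effector of the Hippo pathway, had Trr in 6 of 10 cases and RNA Pol II in 8. The shares over all genes were 20.5 and 41.5%, and 7 of the 10 were in the longest decile with its 48.5% for Trr. Of the 8 with RNA Pol II, 75% had Trr, beside 45.8% over all genes with RNA Pol II and 78.1% in that decile. The scaffold gene kibra had 9471 bp in 6 peaks, the caspase inhibitor gene Diap1 5789 bp, the kinase gene wts 4512 bp, CycE 3104 bp, ex 2095 bp and Myc 724 bp. There was none in Mer, ds, fj or mir-ban. Of 19 Notch pathway genes, 6 of them in the longest decile, 10 had Trr and 13 RNA Pol II, to be read against the same 20.5 and 41.5%. Trr was present in 76.9% of the 13, beside the same 45.8 and 78.1%. The coactivator gene mam (8009 bp), the receptor gene N (4784 bp in 7 peaks), the ubiquitin ligase gene neur (2547 bp) and numb (1786 bp) led, and E(spl)malpha-BFM was wholly covered. The ligand genes Delta and Ser had no Trr, nor did Su(H), H or spdo.

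Of the 9 genes of the Trr complex, 2 (22.2%) had Trr, near the 20.5% of all genes. The 2 with peaks were trr, with 4 peaks and 4379 bp or 50.7% of its 8638 bp, and ash2 with 474 bp. RNA Pol II touched 7 of these 9 genes, beside 41.5% of all genes, but covered only 513 bp of trr. The Dam-Trr transgene itself carries trr sequence, and binding at the resident gene and methylation of the transgene cannot be told apart from the list. In their own lists, brm had 228 bp in Brm peaks, Pc 0 bp in Polycomb peaks and the gene that encodes HP1 0 bp in HP1 peaks. These fusions had other Dam-only samples, and the gene sequence that they carry is not given here, so they are not matched to Dam-Trr. The part of the transgene in the trr peaks was not tested. Of 6 genes of the Set1 and Trx complexes, 2 had Trr, beside the same 20.5%. These were trx with 2953 bp and Cfp1 with 185 bp, and Set1, Hcf, Mnn1 and Wdr82 had none. The list named enhancer cofactors has 8 genes, among them the receptor genes EcR and usp, which the ecdysone list also counts. Trr touched 5 of the 8, beside 20.5% of all genes. The longest decile holds 5 of them, and 48.5% of its genes had Trr. Of those with RNA Pol II, 71.4% had Trr, beside 45.8% over all genes with RNA Pol II and 78.1% in that decile. The bound genes were EcR, the Yorkie partner sd (5527 bp), kis (2951 bp), nej (899 bp) and brm (884 bp). Su(var)3-3, usp and yki had none.

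Markers of midgut cell types were examined beside the ISC label. The lists are small and were chosen with earlier results known, so their counts do not settle that label. RNA Pol II touched all 6 ISC markers and Trr 3 of them, Sox21a (2425 bp), Sox100B (2279 bp) and mira (438 bp), with none in esg, Delta or spdo, beside 41.5 and 20.5% of all genes. With 1 kb added on both sides Trr was present at 5 of the 6, including esg (640 bp) and spdo (441 bp) but not Delta, and at 28.5% of all genes. All 4 enteroblast markers, klu (2012 bp), E(spl)malpha-BFM (676 bp), E(spl)mbeta-HLH (498 bp) and E(spl)m3-HLH (197 bp), had peaks of both proteins. The E(spl) markers lie close together on 3R, and other E(spl) genes of the Notch list were mixed. E(spl)mgamma-HLH (424 bp) and E(spl)m7-HLH (57 bp) had both proteins, whereas E(spl)m5-HLH, E(spl)m8-HLH and E(spl)mdelta-HLH had neither. Of 8 enterocyte markers, Trr touched Myo31DF (2906 bp), Mal-A1 (407 bp) and nub (199 bp), and the protease genes betaTry, lambdaTry, Jon65Aiii and Jon65Aiv had none. Of 9 enteroendocrine markers, pros alone had Trr (471 bp), and the peptide hormone genes Tk, NPF, AstA, AstC, CCHa1, CCHa2 and Dh31 had none. Of 7 visceral muscle markers, Mef2 alone had Trr (3623 bp), and Mhc, sls and Act57B had none. RNA Pol II touched 3 of the 8 enterocyte, 2 of the 9 enteroendocrine and 2 of the 7 visceral muscle markers. The counts of every marker list are to be read beside 20.5% of all genes for Trr and 41.5% for RNA Pol II. The longest decile, where 48.5% of genes had Trr and 59.6% RNA Pol II, holds 4 of the visceral muscle and 3 of the enteroendocrine markers.

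Genes for ribosomal proteins mostly had RNA Pol II without Trr in their bodies. RNA Pol II touched 82 of 90 genes for cytoplasmic ribosomal proteins (91.1%), whereas Trr touched 8 (8.89%), which is 9.76% of those with RNA Pol II beside 45.8% over all genes. These genes have a median length of 1315 bp, and in the fifth decile of gene length, into which the list's median falls, 32.3% of genes with RNA Pol II had Trr. Bound members included RpLP2 (604 bp, the whole gene), RpL35 (300 bp), RpS6 (182 bp), RpL7-like (168 bp), RpL8 (122 bp), RpS28b (83 bp) and RpLP0 (26 bp). The list also counts genes named only as similar to a ribosomal protein gene, such as RpL7-like, RpL24-like and RpLP0-like. The contrast was smaller once flanks were added. With 1 kb on both sides, 28 of the 90 genes (31.1%) had Trr, beside 28.5% of all genes. Of the ribosomal protein genes with RNA Pol II in this wider window, 33.7% had Trr, beside 53.6% over all genes and 44.6% in the fifth decile of length. Chemosensory receptor genes, which serve taste and smell, had little of either protein. Trr touched 3 of 185 (1.62%), namely Ir76a, Gr47b and Or63a, with at most 408 bp, and RNA Pol II 11 (5.95%). The shares were 20.5 and 41.5% over all genes, and 14.8 and 41.3% in the fifth decile of length, where this list's median also falls.

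**Figure D5:**
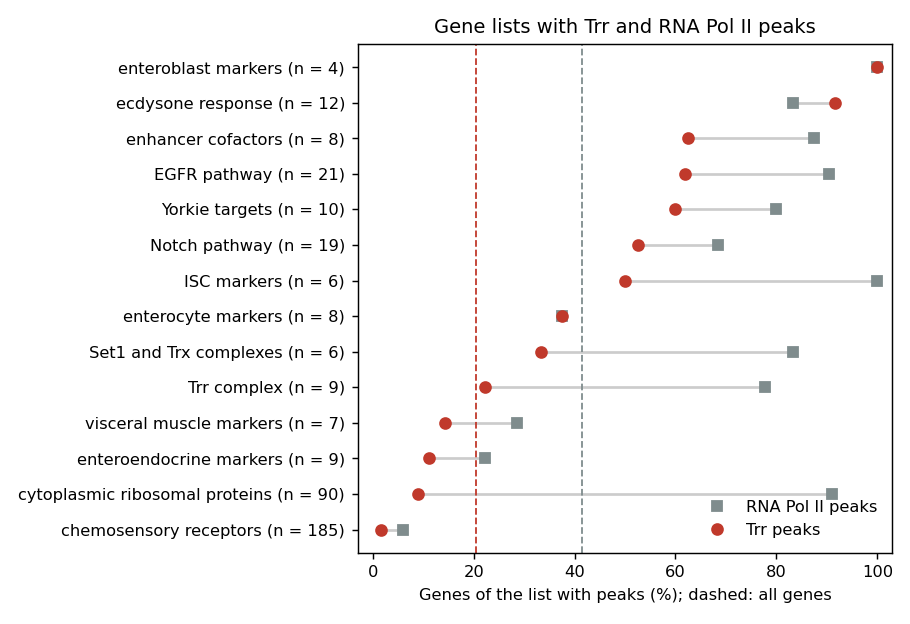
Share of genes (%) with Trr peaks (circles) and RNA Pol II peaks (squares) in each of 14 gene lists, with dashed lines at 20.5 and 41.5% for all genes. The widest gap is in the ribosomal protein genes, 8.89% for Trr and 91.1% for RNA Pol II, and the ecdysone list alone lies higher for Trr.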

How the data were processed

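Per the study's methods, the authors aligned DamID reads with Bowtie2 to Drosophila melanogaster release 6, extended them, counted coverage per GATC site with bedtools and compared fusion with Dam-only samples by DESeq2. Peaks were runs of at least 2 significant sites, with all replicates in 1 call. The deposited lists hold other values only as positions (arm, start, end), with no counts. Versions are not given in the sources used here.

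Peaks were intersected with gene bodies of the RefSeq release 6 annotation (17684 genes on 6 arms, no strand or exons), at least 1 bp counting as contact, in place of the study's rule for genes. Python 3.11.15, NumPy 2.4.6 and matplotlib 3.10.9 were used, and the intersection code was tested on simulated data. No statistical test was run, because replicates entered a single call. Coordinates are 1-based. Named genes are the 10 with most Trr base pairs, the 5 with most peaks, the 5 longest wholly covered, those in the 5 widest peaks, the 5 leading genes with only Trr or only RNA Pol II, the 3 leading genes of each noncoding type, list members and Cbl. Members and lists were chosen with earlier results of these data known. Alternatives were only wide peaks, genes extended by 1 kb, at least 50% overlap, protein-coding genes only, and arms without heterochromatic ends. Overlap with Kismet peaks and promoter motifs were not analysed here. Some members of the gene lists are counted but not reported here by name.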

Additional observations from a re-analysis of the deposited data

How the results depend on the processing

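Leaving out replicates was not possible, since all samples entered 1 call, and no paired analysis was possible because the values come from no test. With only peaks at or above the median width of each list, genes with Trr numbered 2363 (2069 protein-coding, 76 antisense), 80.5% of Trr peaks touched RNA Pol II, 78.0% of Trr base pairs lay in it and 86.7% of genes with Trr had it. The gene lists then held 1 Trr complex, 0 enteroendocrine, 5 ribosomal protein and 0 chemosensory genes. Over all 17684 genes, those with Trr fell from 3625 to 2363 at this setting. Requiring 50% overlap left 526 genes, and 74.9% of Trr peaks had this overlap with RNA Pol II. Bodies of protein-coding genes alone held 81.7% of Trr base pairs. With 1 kb added to genes, 323 lncRNA, 5 ISC marker, 28 ribosomal protein and 7 chemosensory genes had Trr. That setting gave Trr to 28.5% of all genes and to 53.6% of those with RNA Pol II, values added after the data were seen. Of 51 named genes 50 kept their coverage within 1.5 times with wide peaks only, the exception being sncRNA:838 with 0 bp. Peaks without heights or counts leave depth and the strength of binding unknown. The number of GATC sites per gene, which sets where a peak can be called, was not analysed here.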
